A study of Rattus norvegicus with 6 samples.

Results

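The genes described here were selected from the arrays themselves: their signal stood high on saline replicates 2 and 3 and low on the other 4 arrays of the experiment, saline replicate 1 and LPS replicates 1, 2 and 3. Ovaries of female Wistar rat pups were collected on postnatal day (PND) 7, after intraperitoneal injection on PNDs 3 and 5 of either saline or 0.05 mg/kg of LPS (lipopolysaccharide, an outer membrane component of Gram-negative bacteria, here from Salmonella enterica serotype enteritidis). Both treatments shared the strain, sex, age, tissue and injection schedule, and each was measured on 3 arrays. Levels are scaled log2 signals, that is, the log2 of a probe's background-subtracted intensity minus the 75th percentile of its array, so that 0 is the 75th percentile and 1 unit is a 2-fold step. A probe was selected when both saline replicates 2 and 3 lay at least 2 above the highest of the other 4 arrays and were well above background on both, as judged by the scanner software. Of 30367 probes 188 met these criteria (0.619%), and 0 probes lay at least 2 below the lowest of the other 4 arrays on both of these saline arrays. Of these, 19 probes for 18 genes were left out by name, as classical genes of adrenal steroid synthesis and of catecholamine cells. A further 60 probes carried no gene symbol. The remaining 109 probes represented 99 genes, of 15154 genes with a symbol on the array.

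The selection used the levels on all 6 arrays, so these levels and every difference between them are given as a description, without a test. The 99 genes have no common pathway by definition. Some belong to families known from steroid-producing and from neuroendocrine cells. Steroid-producing cells import cholesterol from lipoproteins, convert it in mitochondria with electrons passed along by ferredoxin, and process the product with hydroxysteroid dehydrogenases. Neuroendocrine cells store peptides in dense-core granules and release them by the SNARE machinery that neurons use at synapses. The liver of a young rat secretes albumin, alpha-fetoprotein, transthyretin and coagulation proteins into the blood.

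The 75th percentile of the processed signal ranged from 2824 to 6754, 66.3% to 76.0% of spots were well above background, and no spot was saturated. Of the 11 oocyte genes with a probe 11 were well above background on all 6 arrays, as were 11 of the 13 granulosa cell genes. Transcripts of ovarian cells were thus measured on every array, but in varying amount. In multiples of the 75th percentile, the summed oocyte signal was 37.5, 38.1 and 59.2 on saline replicates 1, 2 and 3. On LPS replicates 1, 2 and 3 it was 26.6, 82.6 and 66.2. For granulosa cell genes the sums were 34.0, 29.1 and 46.8 on the saline arrays. On the LPS arrays they were 20.4, 63.8 and 46.8. The genes left out by name were high on the same 2 arrays. The summed signal of the 11 left-out steroidogenic genes, in multiples of the 75th percentile, was 268 and 346 on saline replicates 2 and 3 and 4.26 to 6.61 on the other 4 arrays. That of the 10 left-out catecholamine and granule genes was 90.0 and 58.1 against 3.16 to 5.98. Of the first list 10 genes and of the second 8 genes met the same criteria. Saline replicates 2 and 3 stood apart from the other 4 arrays, saline replicate 1 included, in these 2 sums. As most of these genes met the criteria, the sums largely restate the selection and are no separate support. The summed signal of a liver and pancreas list was 29.4 on saline replicate 2. On saline replicate 3 it was 11.8, within the 10.3 to 15.9 of the other 4 arrays. Cyp11b1, which makes corticosterone in the adrenal cortex, differed by at least 1715-fold, Akr1b7 by at least 866-fold and the granule protein Chgb by at least 370-fold, and none was well above background on the other 4 arrays. Whether these 2 samples held RNA of tissue other than ovary was not tested. In whole ovaries, a change in the number of cells of one type and a change in RNA per cell cannot be told apart.

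**Figure D1:**
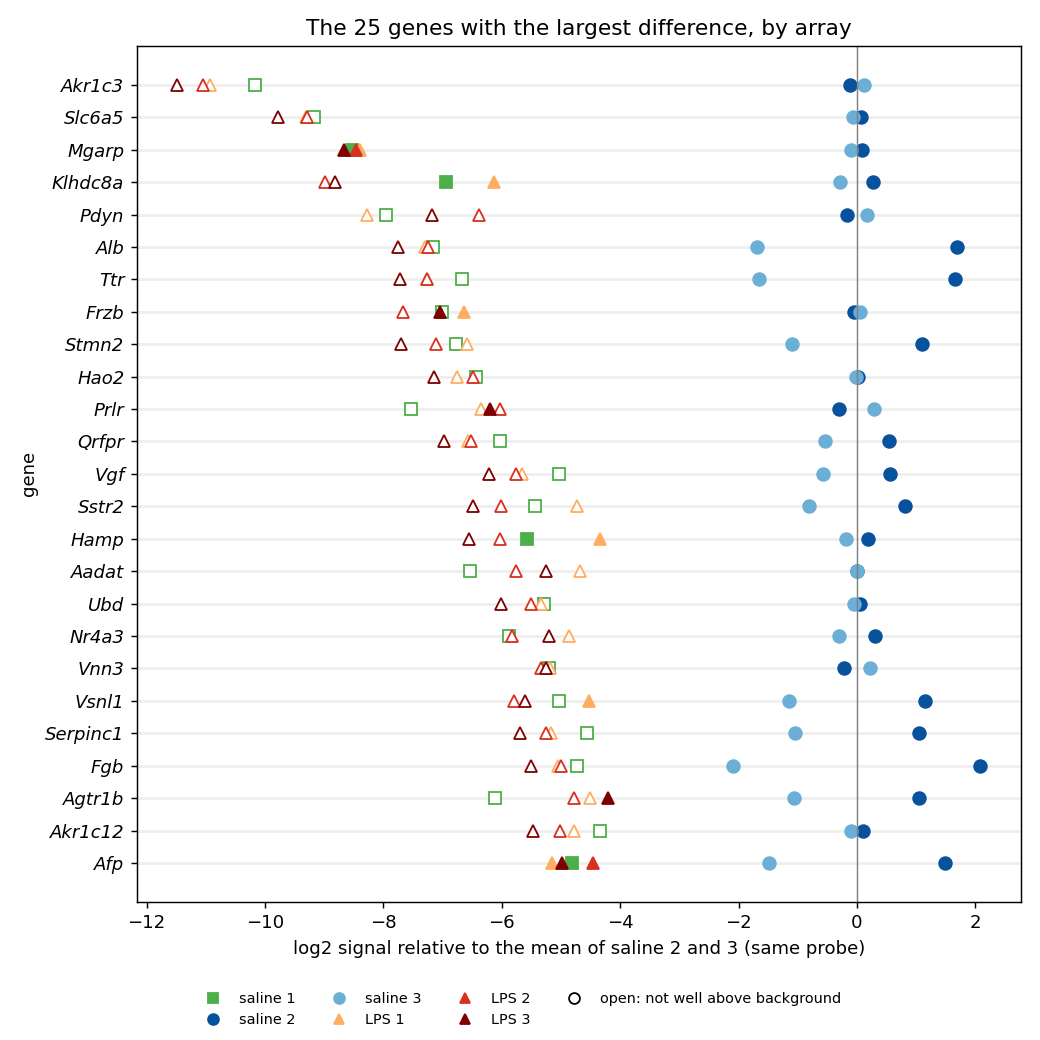
The 25 genes with the largest difference between saline replicates 2 and 3 and the other 4 arrays. The horizontal axis is the log2 signal of each array relative to the gene's own mean over saline replicates 2 and 3, and open symbols mark arrays on which the probe was not well above background. The other 4 arrays lie at least 2 to the left of both high arrays for every gene, and the pair of high arrays is wide apart for Alb, Ttr, Fgb and Afp and close for Akr1c3, Slc6a5, Mgarp and Frzb.

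Over the 99 genes, the mean of saline replicates 2 and 3 exceeded the mean of the other 4 arrays by a median of 3.87 on the log2 scale, with a range from 2.42 to 10.91. On the other 4 arrays 45 genes were well above background on all 4, 39 on none, and 7, 5 and 3 on 1, 2 and 3 of them. Of all 18422 probes well above background on saline replicates 2 and 3, 98.2% were well above background on all of the other 4 arrays and 0.451% on none. Among the 45 genes measured on every array, the difference ran from 5.36-fold for Fdxr to 365-fold for Mgarp. These sizes depend on the background subtraction: without it the differences of 40 of 46 named genes were smaller by over 1.5 times, with that of Mgarp at 6.62 in place of 8.51 on the log2 scale, and with normexp those of 37. For the 39 genes without a measured level elsewhere only a lower bound on the fold can be given. It was taken from the mean of the high arrays and, on each of the other arrays, the probe's own signal or the lowest signal well above background, whichever was higher. Every fold given as at least a value is such a bound and holds only for the background subtraction used here. Without that subtraction the log2 difference was 4.96 for Slc6a5 and 3.68 for Pdyn, below their bounds of 7.30 and 6.19. The values just inside the criterion belonged to Drgx, at 2.04 between the lower high array and the highest of the others, Lhfpl5 and Mthfd2 at 2.06 each, and Gpr182 at 2.07. Just outside were Rab3b at 1.99, Dpyd and a second probe of Tlx2 at 1.95 each, and Serpini1 at 1.94.

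**Figure D2:**
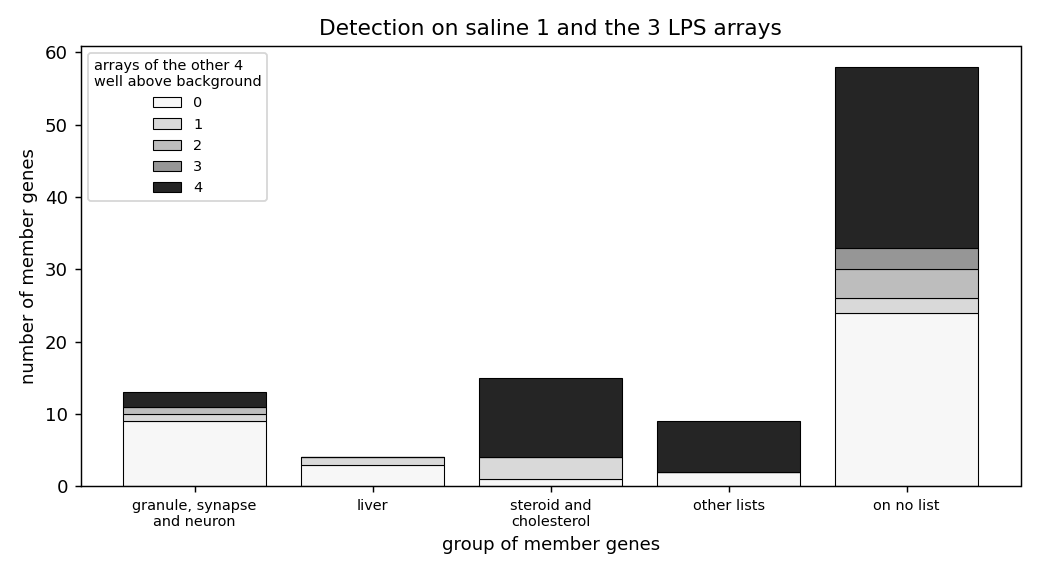
Number of the 99 genes in each group by how many of the other 4 arrays (saline replicate 1 and the 3 LPS arrays) showed the gene well above background. Of the 15 steroid and cholesterol genes 11 were detected on all 4 of these arrays, whereas 9 of the 13 granule, synapse and neuron genes were detected on none.

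The steroid-producing group was the largest of the listed groups. The lists were chosen with earlier results of these data known, so counts per list, here and below, are descriptions. Over all genes with a symbol, 99 of 15154 were selected. Of 57 genes with a probe on a list of further steroid and adrenal cortex genes 13 were selected, and of 62 cholesterol and lipid genes 2. Mgarp, a mitochondrial protein of steroid-producing tissues, had 4.66 on saline replicate 2 and 4.48 on saline replicate 3, against -3.96 on saline replicate 1 and -3.82, -3.90 and -4.09 on LPS replicates 1, 2 and 3. The other 4 arrays were thus within a narrow range of each other, and the low levels were well above background on each. A second Mgarp probe was high on the same 2 arrays, at 2.46 and 1.98 on the high arrays, but was not well above background on any of the others, and the difference there was at least 140-fold. Fdx1, the ferredoxin that feeds electrons to the cholesterol side-chain cleavage enzyme, had 5.84 on saline replicate 2 and 5.89 on saline replicate 3, against 1.27 on saline replicate 1 and 1.36, 1.73 and 1.61 on LPS replicates 1, 2 and 3. Its reductase Fdxr was the gene with the smallest difference of the whole set, at 4.98 on saline replicate 2 and 4.81 on saline replicate 3, against 2.74 on saline replicate 1 and 2.40, 2.40 and 2.35 on LPS replicates 1, 2 and 3. Both electron carriers were readily detected on every array.

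The genes Hsd3b1, Hsd3b3 and Hsd3b5 of the hydroxysteroid dehydrogenase family are near-identical copies, so their probes may share signal and are uncertain as separate readings. Hsd3b1 had 6.26 on saline replicate 2 and 6.50 on saline replicate 3, against 2.30 on saline replicate 1 and 1.84, 3.91 and 3.58 on LPS replicates 1, 2 and 3. Hsd3b3 had 3.91 on saline replicate 2 and 3.80 on saline replicate 3, against -2.13 on saline replicate 1 and -2.09, 0.66 and 0.16 on LPS replicates 1, 2 and 3. For both genes, LPS replicates 2 and 3 lay between the high saline arrays and the pair formed by LPS replicate 1 and saline replicate 1. Hsd3b5 was at 2.94 on saline replicate 2 and 3.17 on saline replicate 3 and showed the same order. A second Hsd3b5 probe was not well above background on saline replicate 2 or 3.

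Scarb1, the receptor that takes up cholesterol from high-density lipoprotein, was measured at 3.58 on saline replicate 2 and 3.94 on saline replicate 3, against -0.15 on saline replicate 1 and -0.20, 1.07 and 1.05 on LPS replicates 1, 2 and 3. Its second probe also met the criterion, with a difference of 3.31 against 3.32 for the first. Apoc4, an apolipoprotein, had 2.88 on saline replicate 2 and 1.90 on saline replicate 3, against -1.23 on saline replicate 1 and -2.07, -1.34 and -1.42 on LPS replicates 1, 2 and 3. Its other probe showed little of this pattern, with a difference of 0.98 and saline replicate 3 below LPS replicate 1. Lipa, the lysosomal acid lipase that frees cholesterol from its esters, and Gramd1b, a carrier of cholesterol between membranes, were on no list and were also selected, with differences of 5.49-fold and 5.42-fold.

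Among receptors and regulators of steroid-producing cells, Prlr, the prolactin receptor, had 1.08 on saline replicate 2 and 1.66 on saline replicate 3, against -6.16 on saline replicate 1 and -4.99, -4.66 and -4.84 on LPS replicates 1, 2 and 3. It was well above background on LPS replicate 3 only among the last 4. Agtr1b, an angiotensin II receptor whose close relative Agtr1a could share signal, had 0.62 on saline replicate 2 and -1.50 on saline replicate 3, against -6.55 on saline replicate 1 and -4.96, -5.23 and -4.65 on LPS replicates 1, 2 and 3. The high arrays differed from each other by 2.11 for Agtr1b, with saline replicate 2 higher, and by -0.59 for Prlr, with saline replicate 3 higher. Vsnl1, a neuronal calcium sensor also known from the adrenal zona glomerulosa, behaved like Agtr1b in this respect, at 1.20 on saline replicate 2 and -1.10 on saline replicate 3. Nr0b1, the orphan nuclear receptor DAX1 that represses steroidogenic genes, was at 1.27 on saline replicate 2 and 0.75 on saline replicate 3 and between -3.47 and -2.41 elsewhere. Cyp1b1, a cytochrome P450, was at -3.56 on saline replicate 2 and -2.82 on saline replicate 3, and it was not well above background on any other array. Rgn and Srd5a1 completed this list.

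Enzymes of redox and detoxification supplied the largest value of the set. Akr1c3, an aldo-keto reductase of a family that reduces steroids and other carbonyl compounds, had 3.76 on saline replicate 2 and 3.99 on saline replicate 3, against -6.30 on saline replicate 1 and -7.05, -7.17 and -7.61 on LPS replicates 1, 2 and 3. None of the last 4 was well above background, and the difference was at least 442-fold. Without background subtraction it was 6.63 on the log2 scale in place of 10.91, which is below that bound, and with normexp it was 8.12. A second Akr1c3 probe met the criterion as well, with a difference of at least 237-fold. Its neighbor in the genome and close copy Akr1c12 had -2.03 on saline replicate 2 and -2.23 on saline replicate 3, a difference of at least 6.86-fold, and cross-hybridization between both copies cannot be told apart from separate expression. Aldh1l1, a folate enzyme, had 2.03 on saline replicate 2 and 2.54 on saline replicate 3, against -2.23 on saline replicate 1 and -2.29, -2.25 and -2.31 on LPS replicates 1, 2 and 3. Abcc5, an export pump for organic anions, was equally even on the low side, with -0.38 on saline replicate 1 and -0.52, -0.49 and -0.46 on LPS replicates 1, 2 and 3, and reached 3.62 on saline replicate 2 and 3.48 on saline replicate 3. Srxn1, which restores oxidized peroxiredoxins, differed by 7.98-fold. In total 4 of 53 genes with a probe on this list were selected.

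Peptide and granule genes were represented by 5 of 36. Pdyn, the precursor of the dynorphin opioid peptides, had 1.11 on saline replicate 2 and 1.45 on saline replicate 3, against -6.68 on saline replicate 1 and -7.00, -5.10 and -5.90 on LPS replicates 1, 2 and 3. It was not well above background on any of the last 4, and the difference was at least 73.1-fold. Vgf, a granule protein cleaved to bioactive peptides, had -0.79 on saline replicate 2 and -1.92 on saline replicate 3, and it too was not well above background elsewhere. Resp18 and Pcsk1n were in contrast detected everywhere. Resp18, an endoplasmic reticulum and granule protein, was at 3.01 on saline replicate 2 and 2.48 on saline replicate 3, against -1.47 on saline replicate 1 and -1.27, -1.91 and -2.06 on LPS replicates 1, 2 and 3. Pcsk1n, a peptide inhibitor of a prohormone convertase, was at 3.43 on saline replicate 2 and 3.66 on saline replicate 3, against -0.66 on saline replicate 1 and -1.08, 0.08 and -0.13 on LPS replicates 1, 2 and 3, with both LPS replicates 2 and 3 above LPS replicate 1. Ptprn, a granule membrane protein, was the fifth.

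Of the release machinery 3 of 41 genes were selected, and of neuronal cytoskeleton and adhesion genes 2 of 30. Stmn2, a tubulin-binding protein of growing axons, had 1.28 on saline replicate 2 and -0.91 on saline replicate 3, against -6.60 on saline replicate 1 and -6.40, -6.93 and -7.51 on LPS replicates 1, 2 and 3. None of the last 4 was well above background, and the difference was at least 34.2-fold. A second Stmn2 probe met the criterion too, at 0.37 and -2.44 on saline replicates 2 and 3. Snap25, a SNARE protein of synaptic vesicle fusion, had -2.00 on saline replicate 2 and -3.41 on saline replicate 3, a difference of at least 4.61-fold. Cplx1, which clamps the SNARE complex, had -2.71 on saline replicate 2 and -4.09 on saline replicate 3. Bsn, a scaffold of the presynaptic active zone, was at -3.95 on saline replicate 2 and -3.88 on saline replicate 3, a difference of at least 1.99-fold. The Bsn and Nrcam readings rest on 1 probe each: further probes that were well above background on both high arrays gave differences of 0.37 for Bsn and -0.15 for Nrcam. Of the catecholamine cell receptors, transporters and regulators 3 of 32 were selected. Slc6a2, the noradrenaline transporter, had 0.40 on saline replicate 2 and -1.34 on saline replicate 3, against -5.05 on saline replicate 1 and -4.37, -5.26 and -5.52 on LPS replicates 1, 2 and 3. Drd2, the dopamine receptor, had -2.36 on saline replicate 2 and -3.95 on saline replicate 3, a difference of at least 3.38-fold. Tlx2, a homeobox factor of autonomic neurons, had -1.06 on saline replicate 2 and -1.98 on saline replicate 3. A second Drd2 probe, detected on all 6 arrays, differed by 0.61 only. Of 47 ion channel genes Kcnk3 was the one selected. Kcnk3, an acid-sensitive potassium channel that sets the resting potential of adrenal cells, had 4.20 on saline replicate 2 and 4.04 on saline replicate 3 and at most -0.10 on the others. All 6 arrays were well above background, and the difference was 24.3-fold.

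Among secreted liver proteins, 4 of the 22 genes on the liver and pancreas list were selected. Alb (albumin) had 2.06 on saline replicate 2 and -1.33 on saline replicate 3, against -6.79 on saline replicate 1 and -6.94, -6.89 and -7.38 on LPS replicates 1, 2 and 3. Ttr (transthyretin, a carrier of thyroid hormone) had 1.86 on saline replicate 2 and -1.45 on saline replicate 3, against -6.47 on saline replicate 1 and -7.05, -7.06 and -7.51 on LPS replicates 1, 2 and 3. Fgb (the fibrinogen beta chain) had 0.07 on saline replicate 2 and -4.10 on saline replicate 3, against -6.75 on saline replicate 1 and -7.06, -7.02 and -7.52 on LPS replicates 1, 2 and 3. For these 3 genes saline replicate 2 was the highest array by 3.32 to 4.17, and the last 4 arrays were not well above background. The bounds were at least 38.7-fold for Alb, 34.6-fold for Ttr and 7.43-fold for Fgb. Hpx, the haem-binding plasma protein, was the fourth, at -0.35 on saline replicate 2 and -1.38 on saline replicate 3. Afp (alpha-fetoprotein) and Serpinc1 (antithrombin) are plasma proteins of the liver that were on no list, as was the liver hormone Hamp described below, for which the 2 high arrays differed by 0.37. Afp, the neighbor of Alb in the genome, had 2.81 on saline replicate 2 and -0.16 on saline replicate 3, against -3.50 on saline replicate 1 and -3.82, -3.14 and -3.65 on LPS replicates 1, 2 and 3, and Serpinc1 had -0.78 on saline replicate 2 and -2.88 on saline replicate 3. The summed signal of the liver and pancreas list, again in multiples of the 75th percentile, was 29.4 on saline replicate 2, 11.8 on saline replicate 3 and 10.3 to 15.9 on the rest. Its part in the other results was not tested.

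On no list were 58 of the 99 genes, and several of these had large differences. Slc6a5, a glycine transporter of inhibitory neurons, had 2.46 on saline replicate 2 and 2.32 on saline replicate 3, against -6.78 on saline replicate 1 and -6.91, -6.91 and -7.39 on LPS replicates 1, 2 and 3. The difference was at least 158-fold at this probe, but a second Slc6a5 probe that was well above background on all 6 arrays differed by 0.05, so the 2 probes disagree. Klhdc8a, a kelch-domain protein, had 2.41 on saline replicate 2 and 1.85 on saline replicate 3, against -4.81 on saline replicate 1 and -3.99, -6.86 and -6.68 on LPS replicates 1, 2 and 3. Its levels on saline replicate 1 and LPS replicate 1 were well above background and those on LPS replicates 2 and 3 were not. Frzb, a secreted Wnt antagonist, had 2.22 on saline replicate 2 and 2.32 on saline replicate 3, against -4.74 on saline replicate 1 and -4.37, -5.40 and -4.77 on LPS replicates 1, 2 and 3. Hao2, a peroxisomal hydroxyacid oxidase encoded beside Hsd3b1, had 0.94 on saline replicate 2 and 0.91 on saline replicate 3, a difference of at least 57.1-fold. Aadat, an aminotransferase of lysine and kynurenine metabolism, had 0.02 on saline replicate 2 and 0.03 on saline replicate 3, a difference of at least 29.2-fold. Ubd, a ubiquitin-like modifier, had -1.40 on saline replicate 2 and -1.50 on saline replicate 3 and was not well above background on the others. For these genes the 2 high arrays were within 0.56 of each other. Hamp, the iron hormone hepcidin, had 0.83 on saline replicate 2 and 0.46 on saline replicate 3, against -4.92 on saline replicate 1 and -3.70, -5.38 and -5.91 on LPS replicates 1, 2 and 3. The receptors Qrfpr, for a hypothalamic peptide, and Sstr2, for somatostatin, differed by at least 21.4-fold and 13.8-fold. Vnn3 and its neighbor Vnn1, pantetheinases, differed by at least 17.4-fold and by 6.05-fold, the second measured on all arrays. Of 38 immediate-early genes and nuclear receptors of the Nr4a family 2 were selected, both of them Nr4a receptors. Nr4a1 had 1.95 on saline replicate 2 and 1.30 on saline replicate 3, against -1.08 on saline replicate 1 and -1.61, -1.36 and -2.16 on LPS replicates 1, 2 and 3. Nr4a3 had -0.13 on saline replicate 2 and -0.73 on saline replicate 3, a difference of at least 22.3-fold. The cartilage and glial protein Mia and the muscle protein Myom2 were the only ones selected from the lists of 23 Schwann cell and glial genes and 21 muscle genes. No gene was selected from the kidney, adipocyte, endothelium, macrophage, red blood cell, oviduct, oocyte or granulosa cell lists. These lists held 10 to 19 genes with a probe each, not all of them detected, and 99 of all 15154 genes were selected, so nothing is read from these counts of 0.

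**Figure D3:**
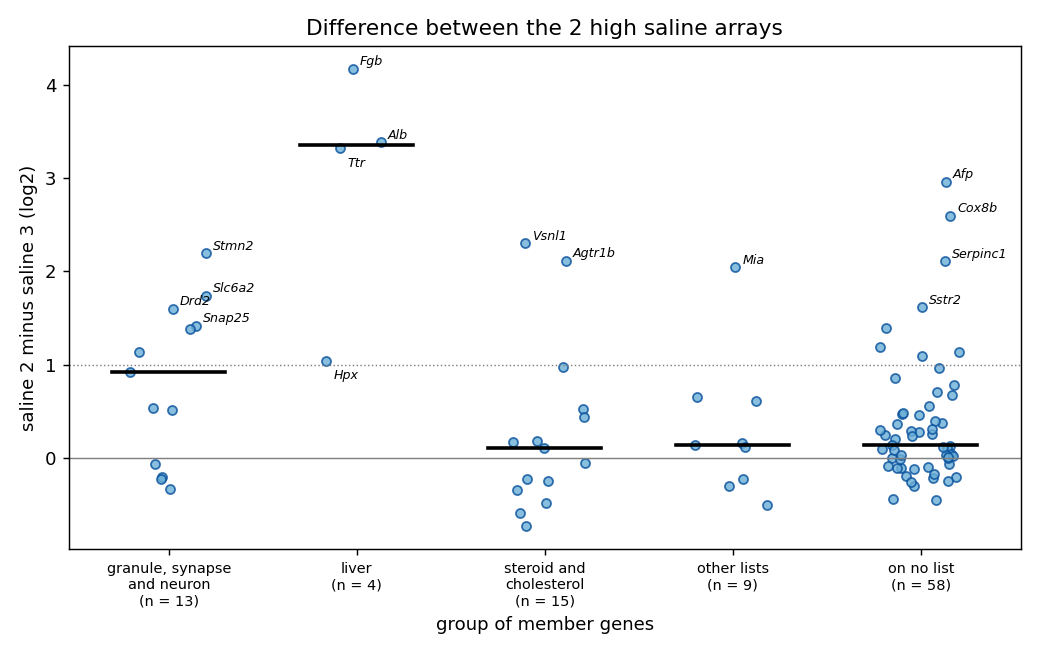
Saline replicate 2 minus saline replicate 3 for each of the 99 genes (points), by group, with the group median as a bar; the dotted line marks 1, that is, a 2-fold difference. The liver group holds only the 4 selected genes of the liver and pancreas list, which all lie above 1 and up to 4.17. Of the 15 steroid and cholesterol genes 9 lie within 0.5 of 0 and Vsnl1 and Agtr1b above 2. No gene lies below -1.

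The selection required both saline replicates 2 and 3 to be high, but not that they be equal. The difference of saline replicate 2 minus saline replicate 3 had a median of 0.18 over the 99 genes and a range from -0.74 to 4.17. It was at least 1 in 21 genes, whereas of all 18422 probes well above background on both arrays 1.06% had such a difference. A difference of at least 1 in the other direction was found in 0 of the 99 genes and in 0.727% of those probes. The 2 arrays were within 0.5 of each other in 62 of 99 genes and in 88.0% of the probes. The medians differed between groups of genes, which was not tested. The 15 steroid and cholesterol genes had a median of 0.10, and the left-out steroidogenic genes 0.03. The 13 granule, synapse and neuron genes had a median of 0.92 with 6 at 1 or more, and 8 left-out catecholamine and granule genes 0.75. The 4 selected genes of the liver and pancreas list had a median of 3.35. Of the liver genes described above that were on no list, Afp had 2.96, Serpinc1 2.11 and Hamp 0.37. The wide gap was thus not common to all selected liver genes. The genes at the low end were Cyp1b1 at -0.74, Prlr at -0.59 and Aldh1l1 at -0.51. Wide gaps were not particular to 1 group: outside the liver genes they included Vsnl1 at 2.30, Stmn2 at 2.19 and Agtr1b at 2.11, and saline replicate 2 was the higher array in 67 of 99 genes. Among the high values on other lists or none were Cox8b, a cytochrome oxidase subunit, at 2.60 and Mia at 2.04. Because each of these differences rests on 2 arrays of the same treatment, no replicate error can be attached to it.

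**Figure D4:**
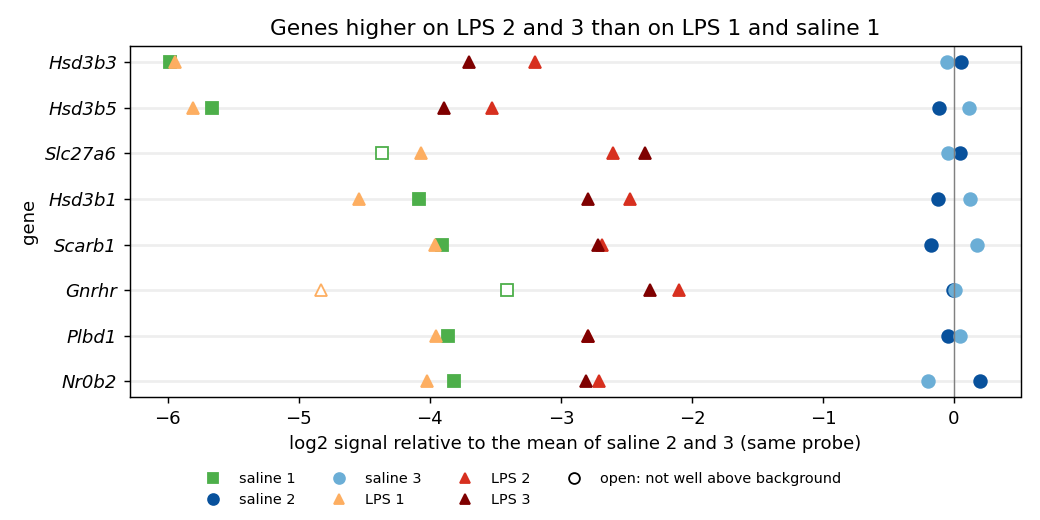
The 8 genes for which LPS replicates 2 and 3 both lay at least 1 above LPS replicate 1 and saline replicate 1. The horizontal axis is the log2 signal relative to the gene's own mean over saline replicates 2 and 3, and open symbols mark arrays not well above background. LPS replicates 2 and 3 lie between the other low arrays and the high saline arrays.

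The other 4 arrays were not uniform either. In 8 genes LPS replicates 2 and 3 both exceeded LPS replicate 1 and saline replicate 1 by at least 1: Hsd3b1, Hsd3b3, Hsd3b5, Scarb1, the fatty acid carrier Slc27a6, the gonadotropin-releasing hormone receptor Gnrhr, the lysosomal protein Plbd1 and the nuclear receptor Nr0b2. The gap was 2.24 for Hsd3b3, 1.77 for Hsd3b5, 1.29 for Hsd3b1 and 1.19 for Scarb1. Of these 8 genes 6 were well above background on all arrays, which is 13.3% of the 45 selected genes so detected, against 0.884% of all 18093 probes so detected. The 6 include Hsd3b1, Hsd3b3 and Hsd3b5, whose probes may share signal and so are not separate readings. The first share counts genes and the second probes, and the order was singled out after it had been seen, so both shares are descriptions. The opposite order was seen in 1 of the 45. The left-out genes Cyp11a1 and Star showed the same intermediate position, with gaps of 1.09 and 1.34. LPS replicates 2 and 3 also shared a row of the slide, in which no other array lay, so the row and this order cannot be told apart. The summed signals of the oocyte and granulosa cell lists were in this order too. That of the oviduct list was in the opposite order, with 83.6 and 76.2 on LPS replicates 2 and 3. It was 144 on LPS replicate 1 and 149 on saline replicate 1. Whether these differences go together was not tested. Saline replicate 1 lay nearer to the mean of the LPS arrays than to the mean of saline replicates 2 and 3 in 99 of 99 genes. The selection largely fixed this outcome, since it placed saline replicate 1 and all LPS arrays below both, so nothing is read from it. Saline replicate 1 was above all 3 LPS arrays in 38 of 99 genes and below all 3 in 19, against 38.2% and 17.3% of all probes.

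In the comparison that the study was designed for, LPS against saline, the selected genes had a median log2 difference of -2.52 (range -7.76 to -1.13), and all probes -0.04. By limma with at least a 2-fold difference and an unadjusted p under 0.05, 58 of the 99 genes and 65 of the 109 probes were lower in LPS, against 1.08% of all probes, and 0 were higher. After Benjamini-Hochberg adjustment in limma 0 of them passed, the smallest adjusted p being 0.271. Since 2 of the 3 saline arrays were chosen as high, nothing about LPS is read from these counts. Without saline replicate 2 the count was 9 probes, without saline replicate 3 it was 3, and without LPS replicates 1, 2 and 3 it was 40, 23 and 11. Without saline replicate 1 the comparison is the one that the selection fixed, so that the 109 of 109 probes called, 97 of them with an adjusted p under 0.05 in limma, are no result. With the replicate number as a block 72 genes were called lower, against 1.26% of all probes. An equal-variance t-test at the same criterion called 0 genes and 1 probe, against 0.158% of all probes. The housekeeping genes Actb, Tuba1a and Gapdh differed between LPS and saline by -0.03, -0.02 and -0.24, with adjusted p-values of 0.994, 0.995 and 0.683 in limma.

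Promoters were searched for 3 motifs that are known from genes of these cell types. They were the half-site AAGGTCA bound by nuclear receptors such as steroidogenic factor 1, the cyclic AMP response element TGACGTCA, and TAATTA, a core sequence of homeodomain factors. The last 2 read the same on both strands. The search covered both strands of the 250 bases before the annotated start of 85 of the 99 genes (RefSeq, GRCr8 assembly). AAGGTCA was found in 3.53% of the 85 promoters, TGACGTCA in 4.71% and TAATTA in 4.71%. In the promoters of all 12384 genes with a named probe the shares were 3.03%, 2.39% and 4.15%. Each share of the selected genes rests on 3 or 4 promoters. The cyclic AMP response element lay in the promoters of Vgf at -90, Sstr2 at -73, Kiaa0408L at -29 and Spetex2f at -139 from the start. The nuclear receptor half-site lay in those of Frzb at -43, Eepd1 at -241 and Hpx at -135 and -27. The promoters of Vgf, Sstr2 and Frzb are shown as a choice among these. Each is written 5′ to 3′ along the gene's strand, with the motif in capitals:
Vgf (chr12:25277021-25277270, minus strand): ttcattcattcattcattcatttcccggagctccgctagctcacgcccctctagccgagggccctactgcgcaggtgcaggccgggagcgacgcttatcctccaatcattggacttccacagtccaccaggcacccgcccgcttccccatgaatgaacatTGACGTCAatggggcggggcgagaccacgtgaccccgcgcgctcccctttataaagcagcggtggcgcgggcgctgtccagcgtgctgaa
Sstr2 (chr10:99163103-99163352, plus strand): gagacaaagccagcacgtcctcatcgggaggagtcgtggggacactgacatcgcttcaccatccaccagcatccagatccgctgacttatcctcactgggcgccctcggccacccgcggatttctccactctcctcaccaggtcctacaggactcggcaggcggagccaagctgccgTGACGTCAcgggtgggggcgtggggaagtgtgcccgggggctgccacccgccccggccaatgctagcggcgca
Frzb (chr3:85772097-85772346, minus strand): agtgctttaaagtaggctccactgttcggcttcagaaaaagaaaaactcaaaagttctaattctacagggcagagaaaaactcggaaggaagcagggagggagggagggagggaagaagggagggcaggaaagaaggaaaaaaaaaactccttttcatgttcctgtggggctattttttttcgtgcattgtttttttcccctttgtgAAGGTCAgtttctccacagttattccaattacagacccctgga
A match of letters is no evidence that a factor binds there.

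Several of the selected genes are neighbors in the genome, with no protein-coding gene between them in the GRCr8 annotation. Alb lies next to Afp, Vnn1 next to Vnn3, Akr1c3 next to Akr1c12, Hsd3b1 next to both Hsd3b3 and Hao2, Prlr next to Agxt2, Cyp1b1 next to Rmdn2, and Ptprn next to Resp18. Of the 26 selected genes with more than 1 probe, 7 met the criterion with every probe. The 20 other probes of the remaining genes did not meet it, and 12 of these were well above background on both high arrays. Among the 12, both high arrays were above all other 4 in 8 probes, and the difference was at least 1 in 6. The probes of Slc6a2 illustrate such a case: the second probe was well above background on every array, with 1.18 and -0.42 on saline replicates 2 and 3 and -2.69 to -1.65 on the other 4, so the order of the arrays held with a difference of 2.54 in place of 4.58.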

How the data were processed

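Ovarian RNA of 3 saline and 3 LPS samples was measured on 6 single-colour Agilent arrays, grouped by the treatment and replicate number in the labels. According to the study's methods more animals than arrays contributed to each treatment, so tissue was probably pooled. The animals of a treatment came from fewer litters than arrays, and whole litters received 1 treatment, so litter and treatment cannot be told apart, and p-values measure only the spread between these samples. The labels name biotin and the methods Cy3 as the label. The authors deposited scanner output of Agilent Feature Extraction 10.5.1.1, whose processed intensity is background-subtracted, with surrogate values for dim spots. A deposited table of the whole series, which repeats these intensities without scaling, served as an alternative.

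Here, flagged spots were left out, spots of a probe were averaged, and log2 values were taken relative to each array's 75th percentile. A probe counted as well above background when at least 0.5 of its spots did. RefSeq accessions gave a symbol to 17998 of 30367 probes through the GRCr8 gene table. Where several probes of a gene were selected, values are those of the brightest on average. All probes were fitted without a filter in limma 3.58.1 under R 4.3.3, with eBayes moderation and Benjamini-Hochberg adjusted p-values. On simulated data 100% of 200 probes changed by a log2 of 2 were recovered. All 200 were drawn from probes with a spread below the median, so this shows nothing about recovery of variable probes such as those selected. Residuals of arrays that share a replicate number were positively correlated (0.298, 0.215 and 0.254 for numbers 1, 2 and 3, although LPS replicate 2 and saline replicate 3 also had 0.160), and nothing else ties the pairs.

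The selected genes, the gene lists and the rule for named genes were chosen with earlier results of these data known. The rule named the 4 genes with the largest difference in each list of functions, the 25 largest over all, those beside the threshold, the 3 with the largest and smallest difference between saline replicates 2 and 3, and Actb and Tuba1a. Values of Hpx, Mia, Cox8b, Fdx1, Fdxr, Nr0b1, Lipa, Gramd1b, Vnn1 and the genes of intermediate level on LPS replicates 2 and 3 were added after they had been seen. Alternatives covered background correction, scaling, the deposited table, flagged and dim spots, the threshold, the choice of probe, slide row and replicate number as blocks, other tests, and each array left out.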

Additional observations from a re-analysis of the deposited data

How the results depend on the processing

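The number of selected probes depended on the threshold, the arrays used and the background correction. With normexp 55 probes for 50 genes met the criterion, and without background correction 37 probes for 32 genes, each of them among the 109 probes and 99 genes. The median difference of the 109 probes, 3.90, became 2.45 and 1.98 under these corrections, and 3.32 with dim signals raised to the lowest signal well above background, an alternative added after the data had been seen, under which 86 probes for 78 genes met the criterion. Thresholds of 1 and 3 gave 263 probes for 238 genes and 58 probes for 52 genes. With arrays left out in turn the counts ran from 113 to 212 probes and from 103 to 193 genes, the highest without saline replicate 3, and the median difference from 3.52 to 4.19. Without scaling between arrays the median of saline replicate 2 minus saline replicate 3 was 0.71, in place of 0.18, and with the other scalings and background corrections it moved by less than the spread between arrays. Signal over background limits the low values, since 39 genes had no measured level on the other 4 arrays.

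For LPS against saline, the selected probes called lower, 65 in the fit described above, numbered 29 with quantile normalization, 1 with the slide row as a block, 1 with the methods' t-test and 27 of 55 with a filter on dim probes. Over all probes, the 327 called lower became 211 without background correction, 173 with quantile normalization, 66 with the slide row as a block, 48 with the methods' t-test and 188 with the filter. With arrays left out in turn, 3 to 109 selected probes and 81 to 757 of all probes were called, and 0 to 97 selected probes passed after adjustment in limma, the highest counts of selected probes being those without saline replicate 1, which the selection fixes. With the replicate number as a block (replicate block), which treats same-numbered arrays as paired, 81 selected probes and 383 of all probes were called lower, and 0 selected probes passed after adjustment. The causes of these changes were not tested. Of 598 values of the 46 named genes under the alternatives, 450 moved by less than the spread over the other 4 arrays, 148 moved by more, and 0 changed sign. The selection placed both high arrays at least 2 above the others, which largely fixed the sign, so nothing is read from this 0. Without saline replicate 2 the differences of 13 named genes were smaller by over 1.5 times, and without saline replicate 3 those of 13 were larger.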
